A study of Mus musculus with 40 samples.

Results

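The 10 CC chemokine genes Ccl2, Ccl3, Ccl4, Ccl5, Ccl6, Ccl7, Ccl8, Ccl9, Ccl20 and Ccl22 were followed through sorted cells of mouse colon tumors, healthy colon and blood. The genes were chosen by family and name, and they are 10 of the 45706 genes in the deposited tables. RNA-seq was performed on 40 libraries in 10 groups of 4. Neutrophils and monocytes came from colon tumors, from the blood of tumor-bearing mice and from the blood of healthy mice, while epithelial and stromal cells came from tumors and from healthy colon.

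Tumor-bearing mice carried Cdx2CreERT2 and Apc fl/fl alleles on a background labelled C57Bl6/Sv129 (the strain number counts upward over some of the labels) and received 1 intraperitoneal dose of tamoxifen of 25 mg per kg at 8 to 10 weeks of age. Cdx2 drives Cre in the colon epithelium, where loss of Apc starts adenomas. Healthy mice were C57Bl6 with no transgene and no agent, so strain, transgene, tamoxifen and tumor cannot be told apart in any comparison with healthy animals. In all 40 libraries the cells were stained and sorted by flow cytometry. Neutrophils were gated as CD45+ CD11b+ MHCII- Ly6G+ Ly6C-low cells, monocytes as CD45+ CD11b+ MHCII- Ly6G- Ly6C-high cells, epithelial cells as EpCAM+ CD45- and stromal cells as EpCAM- CD45-. Tissue was digested with enzymes and blood was not, so digestion goes with every comparison of tumor with blood. Some titles name 2 animals, and those libraries were taken as pools. Groups share animals. Titles of the 24 libraries from tumor-bearing mice name 10 animals or pools, 8 of which gave libraries to more than 1 group, and healthy epithelial replicate 4 and healthy stromal replicate 4 name the same animal. The labels do not say that replicates came from separate preparations throughout, so p-values measure the spread between these libraries.

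The libraries held 10717873 to 38002939 counts on genes, and mitochondrial genes took 5.34% to 83.9% of them, the highest share being in healthy epithelial replicate 4. Level is given as the authors' RPKM (reads per kilobase of transcript of mapped library size), which allows genes of different length to be set side by side. The neutrophil list (7 genes, led by S100a8 and S100a9) summed to 1911 to 20035 RPKM in the 3 neutrophil groups and to 22.6 to 187 RPKM in the monocyte groups. The stromal label did not hold evenly, because 6 fibroblast markers summed to 355 to 2010 RPKM in healthy stroma and to 5.97 to 24.0 RPKM in tumor stroma. Tumor stromal replicates 3 and 4 also held leukocyte markers (Ptprc plus Itgam, 23.9 and 28.0 RPKM, against 1.76 and 0.822 RPKM in replicates 1 and 2), and healthy stromal replicate 4 stood apart with a fibroblast sum of 2010 RPKM and an endothelial sum of 19.3 RPKM against 93.3 to 144 RPKM in the others. Macrophage markers summed to 20.6 to 59.3 RPKM in tumor monocytes and 24.3 to 77.3 RPKM in blood monocytes of tumor-bearing mice, and B and plasma cell markers reached 117 RPKM in healthy stroma. Mast cell and eosinophil markers were at most 6.32 RPKM in any library. The part of these differences in the results was not tested. In these bulk samples, fewer cells of a type and less RNA per cell cannot be told apart.

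Chemokines are small secreted proteins that steer leukocytes through receptors coupled to G proteins. Ccl2, Ccl7 and Ccl8 are monocyte chemoattractants, of which Ccl2 and Ccl7 act through Ccr2. Ccl3, Ccl4 and Ccl5 are inflammatory ligands, of which Ccl3 and Ccl5 act through Ccr1. Ccl6 and Ccl9 are rodent ligands of Ccr1 that myeloid cells make at rest, Ccl20 is the ligand of Ccr6, made by epithelium, and Ccl22 is a ligand of Ccr4 that dendritic cells and macrophages make.

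Of the 10 genes, 8 lie on chromosome 11 in 2 stretches (mm10, which is GRCm38). Ccl2, Ccl7 and Ccl8 span 82035571 to 82116799 (81.2 kb), and Ccl5, Ccl9, Ccl6, Ccl3 and Ccl4 span 83525778 to 83664683 (138.9 kb), 1.41 Mb away. Ccl20 is on chromosome 1 (83116766 to 83119167) and Ccl22 on chromosome 8 (94745590 to 94751699). All are protein-coding, and none overlaps an exon of another gene, although Ccl2 overlaps the gene Gm17268 and Ccl6 overlaps E230016K23Rik. The longest run of bases shared between transcripts was 25, between Ccl6 and Ccl9, followed by 23 between Ccl2 and Ccl7, so short reads of these pairs were only briefly ambiguous.

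Promoter sequence was available from RefSeq (GRCm38.p6) for 6 of the 10 genes as 250 bases before and 50 bases after the start of transcription. The promoters of Ccl3, Ccl6 and Ccl9 are printed because the results on neutrophils and monocytes turn on these neighbouring genes. All 3 are on the minus strand, at chr11:83649329-83649628 for Ccl3, chr11:83593038-83593337 for Ccl6 and chr11:83578587-83578886 for Ccl9, and capitals mark the motifs found.
Ccl3: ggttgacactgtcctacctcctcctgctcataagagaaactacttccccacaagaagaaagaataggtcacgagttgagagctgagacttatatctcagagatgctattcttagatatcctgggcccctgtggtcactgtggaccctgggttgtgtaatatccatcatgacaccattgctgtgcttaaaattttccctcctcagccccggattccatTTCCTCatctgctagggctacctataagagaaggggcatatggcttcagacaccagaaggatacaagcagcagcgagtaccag
Ccl6: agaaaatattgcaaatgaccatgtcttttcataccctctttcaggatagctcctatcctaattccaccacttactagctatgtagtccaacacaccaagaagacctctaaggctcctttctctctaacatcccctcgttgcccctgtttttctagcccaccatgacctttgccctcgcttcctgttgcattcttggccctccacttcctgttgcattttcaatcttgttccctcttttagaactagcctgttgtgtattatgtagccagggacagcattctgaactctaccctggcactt
Ccl9: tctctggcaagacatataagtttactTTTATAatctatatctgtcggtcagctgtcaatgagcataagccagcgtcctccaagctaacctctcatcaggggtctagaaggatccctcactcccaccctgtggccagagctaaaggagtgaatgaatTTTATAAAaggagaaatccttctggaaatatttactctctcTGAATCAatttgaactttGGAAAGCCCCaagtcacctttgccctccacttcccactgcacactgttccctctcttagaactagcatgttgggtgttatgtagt
Motifs were looked for on both strands, namely TATAAA (the TATA element), TTGCNNAA (C/EBP), TGANTCA (AP-1), GAGGAA (ETS) and the NF-kappaB consensus by name. Ccl3 held GAGGAA at -33 from the start on the reverse strand, which 28.3% of all 32851 promoters hold somewhere. Ccl9 held TGANTCA at -53 (7.81% of promoters), the NF-kappaB consensus at -35 (8.46%) and TATAAA at -224, -94 and -92 (13.6%), with the last 2 matches overlapping on opposite strands. The Ccl6 window held none of these motifs, and TTGCNNAA, in 10.8% of promoters, was in none of the 6. Among the promoters not printed, Ccl8 held TATAAA at -32 and GAGGAA at -240, Ccl20 held GAGGAA at -237 and -222 and the NF-kappaB consensus at -80, and Ccl22 held none. These letter matches are a description of the windows.

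By mean level, the leading group differed between the genes, and some genes shared one. Ccl3 and Ccl4 were highest in tumor neutrophils (583 ± 612 and 23.4 ± 17.1 RPKM, SD, n = 4), Ccl9 in tumor monocytes (53.0 ± 16.3), Ccl5 in blood monocytes of healthy mice (3.84 ± 2.52), and Ccl6 in the 3 neutrophil groups (77.9 to 81.2). Ccl2, Ccl7 and Ccl8 were highest in healthy colon stroma (57.3 ± 93.2, 24.9 ± 43.3 and 1.57 ± 2.26 RPKM), and the SDs above the means come from replicate 4. Without that library the mean of Ccl2 in healthy stroma was 10.8 RPKM and tumor monocytes led with 30.4 RPKM. Ccl20 led in tumor epithelium (0.597 ± 0.607) and Ccl22 in tumor stroma (0.629 ± 0.609), both below 1 RPKM. Without tumor epithelial replicate 3 the lead of Ccl20 passed to tumor stroma (0.329 against 0.327 RPKM). The lead of healthy blood neutrophils in Ccl6 passed to tumor neutrophils without healthy blood neutrophil replicate 2 or tumor neutrophil replicate 1 or 2.

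**Figure D1:**
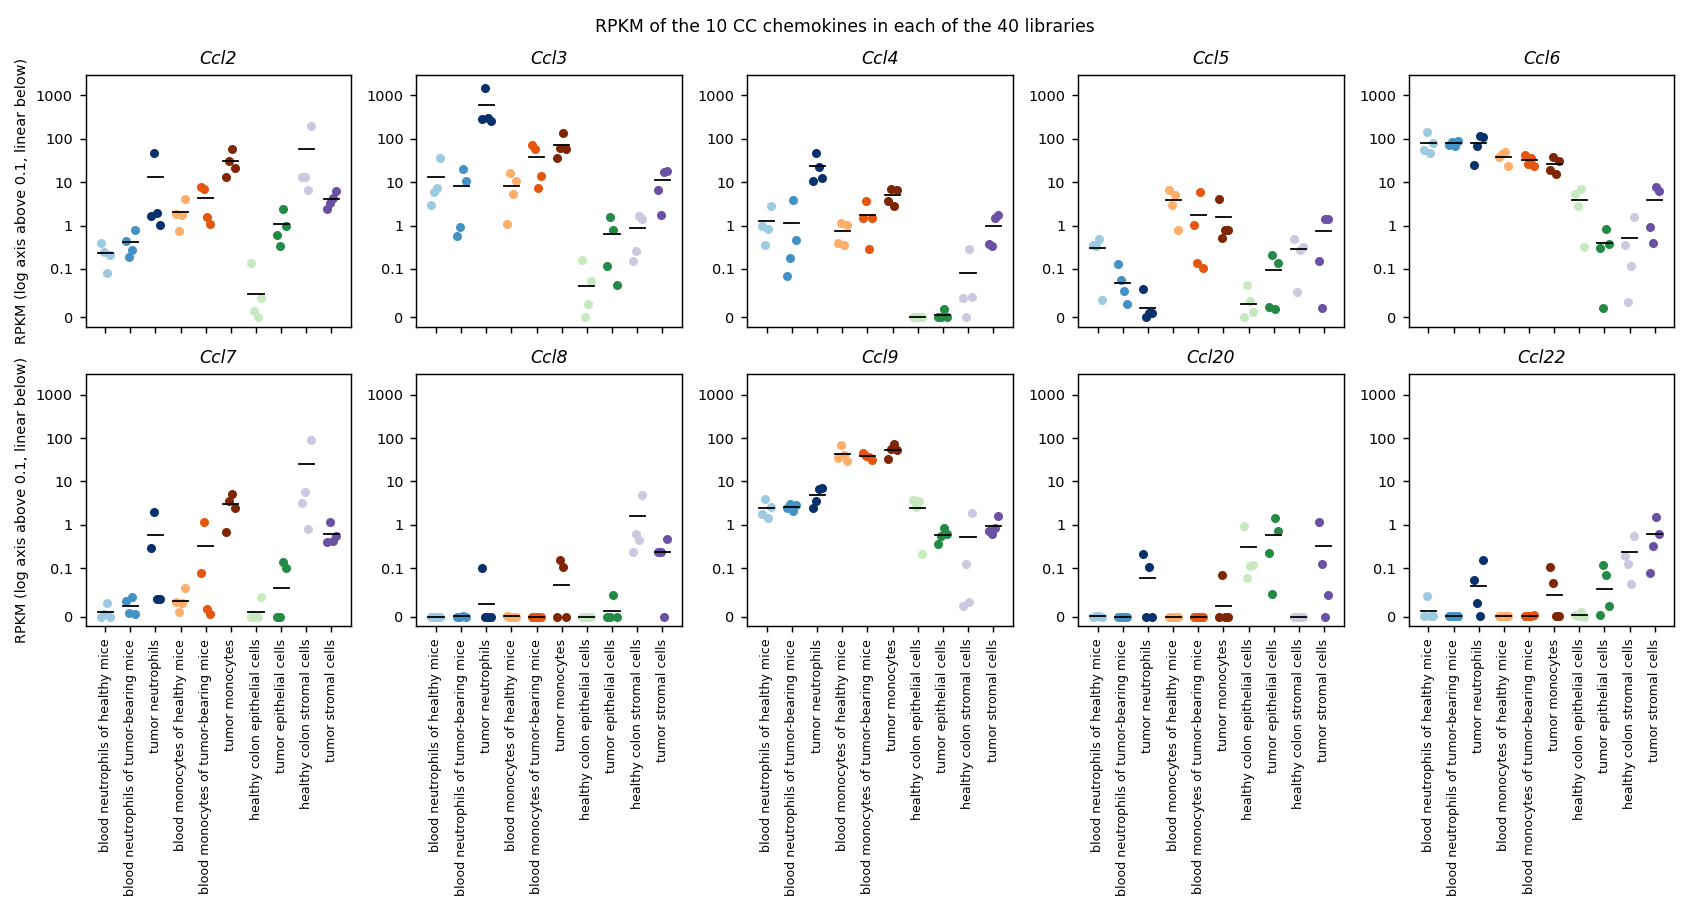
RPKM of the 10 CC chemokines in 10 groups, on a log axis that is linear below 0.1 RPKM. Each point is a library and each bar the mean of 4. Tumor neutrophils stand above every other group for Ccl3 and Ccl4, and the monocyte groups for Ccl9. For Ccl6 the neutrophil groups have the highest means, with tumor neutrophil replicate 1 (25.1 RPKM) within the range of the monocyte libraries, while Ccl20 and Ccl22 stay under 1.5 RPKM.

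Few neighbours in the order of group means were clear of each other's range. Tumor neutrophils did not overlap tumor monocytes, the next group, for Ccl3 and Ccl4. Blood neutrophils of tumor-bearing mice did not overlap blood monocytes of healthy mice for Ccl6, nor did tumor monocytes overlap tumor stroma. For Ccl9 the lowest monocyte group, from the blood of tumor-bearing mice, did not overlap tumor neutrophils. For Ccl4, blood monocytes of healthy mice also lay clear of healthy stroma, the next group. For Ccl2, Ccl5, Ccl7, Ccl8, Ccl20 and Ccl22 every group overlapped the next. The 10 genes together summed to 705 RPKM in tumor neutrophils, 192 in tumor monocytes, 90.1 to 116 in the 4 blood groups, 86.3 in healthy stroma, 23.4 in tumor stroma, and 6.79 and 3.50 in healthy and tumor epithelium.

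The first question was which CC chemokines differ between myeloid cells in the tumor and in the blood of tumor-bearing mice. A gene was called when edgeR's quasi-likelihood test gave a Benjamini-Hochberg adjusted p under 0.05 over all genes and the log2 fold change was above 1.5 in size, and fold changes below are from that fit. Each fit of 2 groups kept genes with enough counts in 4 libraries. A member near 0 in 1 group thus entered through the other and could only be called higher there. Counts by direction and medians of the members carry this limit. In neutrophils, 3 of the 5 members with enough counts to test were called, all higher in the tumor, where 16.3% of all 13674 genes tested were called. The median log2 fold change was 4.58 over the 5 members and 0.11 over all genes. In monocytes 1 of 7 was called, against 11.7% of all genes, with medians of 1.24 and -0.03.

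Ccl3, an attractant of monocytes and neutrophils, stood at 280, 1501, 299 and 253 RPKM in tumor neutrophils and at 0.566, 0.913, 19.7 and 10.6 RPKM in blood neutrophils. Every tumor library was above every blood library, and tumor replicate 2 was far above the others. Ccl3 rose by 6.52 on the log2 scale (SE 1.42, adjusted p = 0.0102) in edgeR's test, and the call held with any 1 library left out (adjusted p at most 0.0369). Ccl4, its close neighbour in the genome, was at 10.7, 47.8, 22.7 and 12.4 RPKM in tumor neutrophils and at 0.0860, 0.178, 3.87 and 0.464 RPKM in blood neutrophils. The groups did not overlap here either, and Ccl4 rose by 4.58 (SE 1.25, adjusted p = 0.0291). The Ccl4 call was lost without blood replicate 1, 2 or 4 (edgeR adjusted p = 0.0548, 0.0687 and 0.0794).

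Ccl2, the main ligand of Ccr2, was at 1.66, 47.5, 1.92 and 1.01 RPKM in tumor neutrophils and at 0.439, 0.193, 0.271 and 0.783 RPKM in blood neutrophils. All tumor libraries were above all blood libraries, but 3 of the 4 only slightly. Ccl2 rose by 5.52 (SE 1.48, edgeR adjusted p = 0.0271). Without tumor replicate 2 the log2 fold change was 1.65 (adjusted p = 0.0653), and the call was also lost without any one of blood replicates 1 to 4 (adjusted p = 0.0690, 0.0744, 0.0757 and 0.0548). Over all alternatives the adjusted p for Ccl2 ran from 0.00129 to 0.212.

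Ccl6 and Ccl9, the resting ligands of Ccr1, gave no call in neutrophils. Ccl6 was at 25.1, 67.8, 118 and 107 RPKM in tumor and 69.7, 82.8, 68.7 and 90.5 RPKM in blood (log2 fold change 0.13, SE 0.48, edgeR adjusted p = 0.881). The tumor range enclosed the blood range. Ccl9 was at 2.48, 3.58, 6.53 and 7.06 RPKM in tumor and 2.42, 3.05, 2.09 and 2.86 RPKM in blood (0.98, SE 0.41, adjusted p = 0.124). Tumor neutrophil replicate 1, with the lowest Ccl6 and Ccl9, held more of the epithelial list than the other 3 libraries (120 RPKM against 10.5 to 28.1), whose part was not tested. Of the members outside the test, Ccl7 had 114 counts in tumor neutrophils and 4 in blood neutrophils, a ratio of depth-scaled counts of 24.4 (exact 95% interval 9.26 to 91.0, counting error only). Most of these counts were in tumor replicate 2, without which the ratio was 5.02 (1.64 to 20.5), and without blood replicate 3 it was 38.3. The RPKM ranges of Ccl7 overlapped. Ccl20 and Ccl22 had 26 and 36 counts against 0, at least 7.41-fold and 10.3-fold higher by a floor of 3 counts over the group, at levels of 0.213 RPKM or less. Without tumor replicate 1 the bound for Ccl20 was 3.26-fold, and without tumor replicate 4 that for Ccl22 was 5.39-fold. Ccl5 had 5 counts against 19, and Ccl8 had at most 3 counts in any of these libraries.

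In monocytes Ccl2 was the member that rose. It was at 12.8, 30.5, 57.8 and 20.6 RPKM in tumor monocytes and 7.73, 7.08, 1.55 and 1.09 RPKM in blood monocytes, and the groups did not overlap (3.11, SE 0.70, edgeR adjusted p = 0.0126). The call held with any 1 library left out (adjusted p at most 0.0331) and just missed the threshold in a fit of all 40 libraries (0.0508). Ccl7, which also signals through Ccr2, was at 0.701, 3.63, 5.11 and 2.49 RPKM in the tumor and 0.0908, 1.17, 0.0148 and 0.00607 RPKM in blood. Blood replicate 2 lay inside the tumor range, and Ccl7 was not called (3.45, SE 1.29, adjusted p = 0.0961). Without that library Ccl7 passed with a log2 fold change of 6.48 (edgeR adjusted p = 0.00573), and so did Ccl4 (2.49, adjusted p = 0.0339).

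Ccl3 was at 36.0, 59.9, 138 and 57.7 RPKM in tumor monocytes and 72.8, 59.3, 7.47 and 14.02 RPKM in blood monocytes. The ranges overlapped (1.24, SE 0.67, edgeR adjusted p = 0.240). Ccl4 was at 2.83 to 7.11 RPKM in tumor and 0.284 to 3.62 RPKM in blood (1.77, SE 0.67, adjusted p = 0.0984). Ccl5 gave 0.06, Ccl6 -0.10 and Ccl9 0.76 on the log2 scale (adjusted p = 0.980, 0.851 and 0.0638). Ccl8, Ccl20 and Ccl22 were too low to test, at 0.155 RPKM or less.

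**Figure D2:**
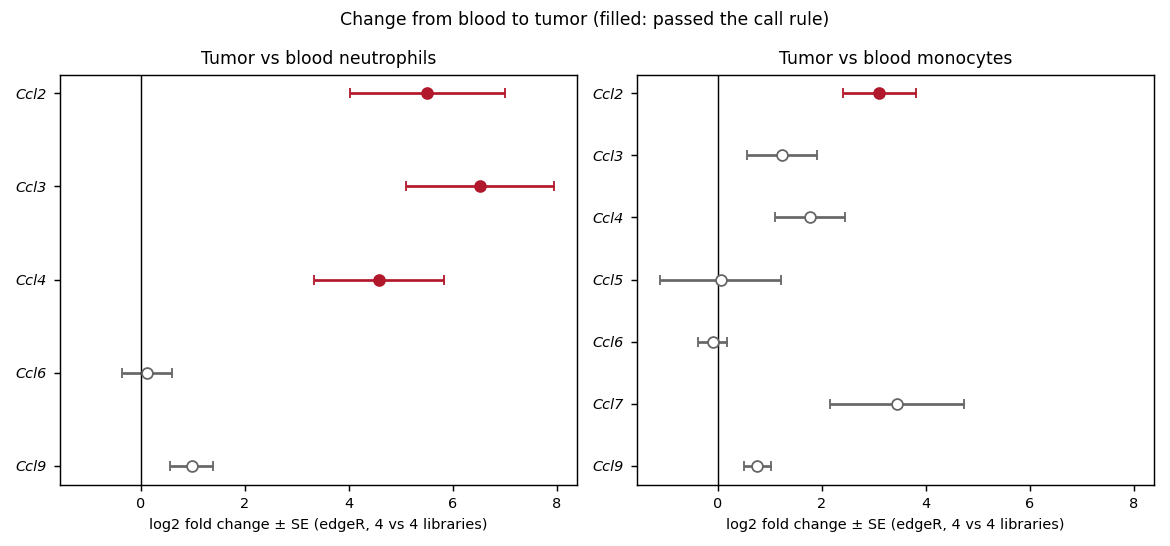
Log2 fold change from blood to tumor of the members tested, in neutrophils (5 members) and monocytes (7 members). Points are edgeR estimates, bars are standard errors, and filled points passed the call rule. Ccl2, Ccl3 and Ccl4 pass in neutrophils and Ccl2 alone in monocytes.

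A test of neutrophils against monocytes in their tumor-minus-blood change used 1 fit of 16 libraries. None of 7 members passed, against 3.95% of all genes, while 1 had an unadjusted p under 0.05. That member was Ccl3, with a log2 difference of 5.17 (neutrophils minus monocytes, SE 1.51, edgeR adjusted p = 0.0599, 0.0232 to 0.168 over the alternatives). Without blood neutrophil replicate 3 both Ccl3 and Ccl4 passed (adjusted p = 0.0491 and 0.0379). For Ccl2 the log2 difference was 2.27 (SE 1.56, adjusted p = 0.433), and Ccl6 and Ccl9 were near 0 (0.12 and 0.11). The median over the members was 1.71, and over all genes 0.10.

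A list of 9 genes that respond to tissue dissociation (Fos, Jun, Egr1, Hspa1a and others) was read beside these results, since digestion goes with the tumor. It summed to 490, 1224, 610 and 493 RPKM in tumor neutrophils and 250 to 557 RPKM in tumor monocytes. In the blood of tumor-bearing mice it summed to 198 to 438 RPKM in neutrophils and 62.2 to 305 RPKM in monocytes. In healthy blood it summed to 433 to 711 RPKM in neutrophils and 60.4 to 104 RPKM in monocytes. Tumor neutrophil replicate 2 was the highest of its group in the list and in Ccl2, Ccl3 and Ccl4. That library also held counts on the fewest genes of its group (17199, against 24046 to 26255), whose part was not tested. The library highest in the list was also the highest in Ccl4 in 5 of the 6 neutrophil and monocyte groups, in Ccl3 in 4 and in Ccl2 in 1. The rate of such matches over all genes was not taken, so these counts are a description. In undigested blood, Ccl3 reached 36.0 RPKM in healthy neutrophil replicate 4, the neutrophil library of healthy mice with the highest list sum (711 RPKM). The other libraries of that group had 2.98 to 7.29 RPKM of Ccl3, while the list sums of the group overlapped those of tumor neutrophils. The part of dissociation in the results was not tested.

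**Figure D3:**
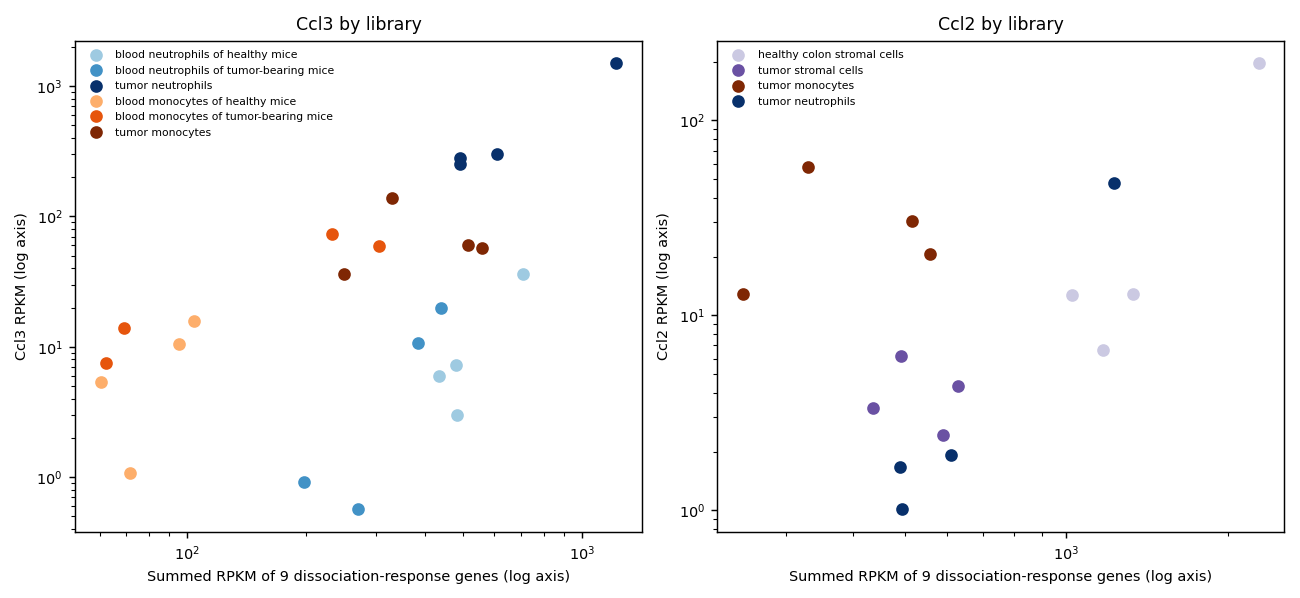
RPKM of Ccl3 against the summed RPKM of 9 dissociation-response genes in the 24 neutrophil and monocyte libraries, and of Ccl2 against the same sum in healthy and tumor stroma, tumor monocytes and tumor neutrophils, on log axes. Each point is a library. Tumor neutrophil replicate 2 (sum 1224, Ccl3 1501) and healthy stromal replicate 4 (sum 2282, Ccl2 197) are the highest points.

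Blood cells of tumor-bearing and healthy mice were compared next. None of 5 members was called in neutrophils, against 4.01% of all genes, and none of 6 in monocytes, against 0.209%, by edgeR. At an unadjusted p under 0.05 there were 0 and 1, and limma-voom and DESeq2 called none either. The member medians were 0.03 and 0.50, with -0.01 and 0.02 over all genes. Ccl6 gave 0.03 (SE 0.26) in neutrophils and -0.16 (SE 0.25) in monocytes, and Ccl9 gave 0.16 (SE 0.27) and -0.12 (SE 0.27), all on the log2 scale. Ccl3 in monocytes was at 72.8, 59.3, 7.47 and 14.02 RPKM in tumor-bearing mice and 1.07, 15.8, 5.34 and 10.5 RPKM in healthy mice (2.26, SE 0.86, adjusted p = 0.430). Replicates 1 and 2 were above every healthy library, and their dissociation sums were also the highest of the blood monocytes (233 and 305 RPKM). Without healthy neutrophil replicate 4, 1 member outside the 5 tested in neutrophils was called. That member passed the filter only with the library left out. Its name and values and the share of all genes called in that fit are not given here.

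The next comparison was of epithelium. Of 4 members tested, 2 fell in tumor epithelium and none rose, where 15.4% of all genes were called. The member median was -1.25 and that of all genes -0.01. Ccl6 was at 5.21, 2.81, 6.92 and 0.324 RPKM in healthy epithelium and 0.309, 0.0182, 0.845 and 0.368 RPKM in tumor epithelium, and fell by 3.78 on the log2 scale (SE 0.77, edgeR adjusted p = 0.00542). Healthy replicate 4, the library with 83.9% mitochondrial counts, lay within the tumor range. Ccl9 was at 3.80, 2.54, 3.47 and 0.216 RPKM in healthy and 0.367, 0.557, 0.842 and 0.605 RPKM in tumor epithelium, and fell by 2.48 (SE 0.44, adjusted p = 0.00228). The same replicate was here below the whole tumor range. On the log2(RPKM + 1) and log2(RPKM + 0.1) scales Ccl9 did not pass (-0.97 on the former scale, limma adjusted p up to 0.145). Both genes are known for myeloid expression. The neutrophil list summed to 11.6, 9.66, 12.4 and 6.74 RPKM in healthy epithelium and 0.924 to 4.44 RPKM in tumor epithelium, with no overlap and in the direction of Ccl6 and Ccl9. In healthy replicates 1 to 3, 1 of its 7 genes, Retnlg, made up nearly all of the sum (11.5, 9.54 and 12.3 RPKM), while S100a8 was at most 0.0450 RPKM. The leukocyte list (Ptprc plus Itgam) summed to 0.300 to 0.406 RPKM in healthy and 0.143 to 0.416 RPKM in tumor epithelium. The macrophage list reached 1.49 and 2.06 RPKM and the monocyte list 1.10 and 2.35 RPKM in healthy and tumor epithelium. The part of myeloid cells in these results was not tested.

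Ccl2 was at most 0.136 RPKM in healthy epithelium and 0.620, 0.330, 2.35 and 0.995 RPKM in tumor epithelium, with no overlap and an edgeR adjusted p just over the threshold (3.25, SE 1.06, adjusted p = 0.0503). It passed without healthy replicate 1 or 4 (adjusted p = 0.0430 and 0.0448). Ccl20, the epithelial ligand of Ccr6, was at 0.925, 0.0800, 0.115 and 0.116 RPKM in healthy and 0.227, 0.0473, 1.41 and 0.707 RPKM in tumor epithelium. The ranges overlapped almost wholly (-0.02, SE 1.00, adjusted p = 0.993). Ccl4 was listed at 0 in the 4 healthy epithelial libraries.

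In stroma 1 of 9 members was called, against 8.40% of all genes, with medians of 1.69 and 0.03. Ccl3 was at 6.50, 1.78, 17.2 and 18.3 RPKM in tumor stroma and 0.153, 0.262, 1.64 and 1.39 RPKM in healthy stroma. The groups did not overlap, and Ccl3 rose by 3.98 (SE 0.94, edgeR adjusted p = 0.0329). The 2 highest libraries, tumor replicates 3 and 4, were those with leukocyte markers, and their neutrophil list summed to 1514 and 514 RPKM against 41.2 and 8.59 RPKM in replicates 1 and 2. The call was lost without healthy replicate 1, 2 or 3 (adjusted p = 0.0688, 0.0891 and 0.0562) or tumor replicate 3 or 4 (0.0638 and 0.0573). Ccl4 was at 0.337 to 1.73 RPKM in tumor and at most 0.281 RPKM in healthy stroma (3.79, SE 1.07, adjusted p = 0.0587), and passed without healthy replicate 3 (adjusted p = 0.0390).

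The monocyte attractants lay the other way in stroma and were not called. Ccl2 was at 12.9, 12.8, 6.64 and 197 RPKM in healthy and 2.42, 3.33, 4.36 and 6.17 RPKM in tumor stroma (-3.51, SE 1.11, edgeR adjusted p = 0.0844). Every healthy library was above every tumor library. Ccl7 was at 3.22, 5.66, 0.817 and 89.8 RPKM in healthy and 0.392, 1.14, 0.418 and 0.551 RPKM in tumor stroma (-4.93, SE 1.46, adjusted p = 0.0673), with healthy replicate 3 within the tumor range, and without that library it passed (-5.33, adjusted p = 0.0467). Ccl8 was at 0.240, 0.624, 0.455 and 4.96 RPKM in healthy and 0.240, 0.237, 0 and 0.482 RPKM in tumor stroma (-2.35, adjusted p = 0.282). The dissociation list lay in the same direction, at 1026 to 2282 RPKM in healthy and 437 to 629 RPKM in tumor stroma with no overlap, and its part was not tested. Healthy replicate 4 led all 3 genes, and it also had the highest fibroblast sum (2010 RPKM) and dissociation sum (2282 RPKM) of the group.

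Ccl6 and Ccl9 gave 3.12 and 1.18 on the log2 scale in stroma (edgeR adjusted p = 0.165 and 0.599), and Ccl9 passed without healthy replicate 4 (4.28, adjusted p = 0.0170). Ccl22 was at 0.0899, 0.320, 1.48 and 0.627 RPKM in tumor and 0.189, 0.122, 0.0680 and 0.557 RPKM in healthy stroma (1.71, adjusted p = 0.280). The dendritic cell markers summed to 0.31 to 3.51 RPKM in tumor and 2.87 to 5.52 RPKM in healthy stroma. Ccl20 had 109 counts in tumor stroma and 0 in healthy stroma, at least 41.2-fold higher. Without healthy replicate 1 the bound was 27.4-fold, and without tumor replicate 1 it was 8.35-fold. Most of the level was in tumor replicate 1 (1.15 RPKM, against 0.127, 0 and 0.0442), the library with the most epithelial marker RNA of that group (187 RPKM).

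Within the tumor, the 4 sorted cell types were compared in 1 fit of 16 libraries. A gene passed the filter with enough counts in 4 of the 16. A member near 0 in 1 cell type thus entered through others and could only be called lower there. Tumor neutrophils and monocytes differed in 4 of 9 members, 2 in each direction, against 13.8% of all genes (medians 1.10 and 0.31). Ccl3 was 3.88 higher on the log2 scale in neutrophils (SE 1.03, edgeR adjusted p = 0.0194) and Ccl4 3.08 higher (SE 0.70, adjusted p = 0.00927), with the levels given above. Ccl9, at 32.1, 55.2, 71.9 and 52.9 RPKM in tumor monocytes, was lower in neutrophils (-2.73, SE 0.44, adjusted p = 0.00114). Ccl5 was at 4.07, 0.521, 0.770 and 0.774 RPKM in tumor monocytes and at most 0.0577 RPKM in tumor neutrophils. With 335 counts against 5, the ratio of depth-scaled counts was 64.2 (exact 95% interval 27.2 to 199). It was 30.7 without monocyte replicate 1 and 126 without neutrophil replicate 1. The edgeR test gave an adjusted p of 0.0164. Such ratios leave out the TMM scaling of the edgeR fit, so they and the fitted fold changes are on different scales. Ccl2 gave -0.21 (adjusted p = 0.903), and Ccl6 2.41 (adjusted p = 0.0662).

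Tumor neutrophil replicate 2 decided several of these values. Without it Ccl3 was no longer called (2.10, edgeR adjusted p = 0.106), while Ccl2 and Ccl7 were called lower in neutrophils (-4.15 and -4.54, adjusted p = 0.00148 and 0.0179). The Ccl3 call was also lost without tumor monocyte replicate 1 or 4 (adjusted p = 0.0601 and 0.0568), and the Ccl5 call without monocyte replicate 1 (0.0532). Ccl6 passed without tumor neutrophil replicate 1 (2.75, adjusted p = 0.0335). With the animal named in the title as a block, neither Ccl3 nor Ccl4 was called (adjusted p for Ccl4 0.0855).

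Against tumor epithelium, tumor neutrophils were higher in 6 of 9 members (Ccl2, Ccl3, Ccl4, Ccl6, Ccl7 and Ccl9, none lower), where 21.6% of all genes were called (medians 4.48 and -0.20), and tumor monocytes in 7 of 9 (the same 6 and Ccl5), where 29.0% were called (medians 5.85 and -0.08). Ccl4 had 3749 counts in tumor neutrophils and 898 in tumor monocytes against 1 in tumor epithelium, ratios of 5924 (exact 95% interval 1063 to 234058) and 1359 (243 to 53733). The single count was in epithelial replicate 3, without which the bounds were at least 1416-fold and 325-fold. Ccl6 was 8.76 and 6.35 higher on the log2 scale in neutrophils and monocytes, and Ccl9 3.99 and 6.72 (edgeR adjusted p at most 0.000343). Without tumor neutrophil replicate 2, Ccl2 and Ccl7 no longer differed from epithelium by the test (0.97 and 1.22, adjusted p = 0.204 and 0.381). Ccl7 was also lost without tumor epithelial replicate 1 or 2 (adjusted p = 0.0639 and 0.0629). The Ccl5 call of monocytes was lost without monocyte replicate 1 or epithelial replicate 1, 3 or 4 (0.0515 to 0.0919). Ccl20, not called, was called lower in monocytes without monocyte replicate 2 (adjusted p = 0.0286).

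Against tumor stroma, tumor neutrophils differed in 5 of 9 members (16.1% of all genes, medians 2.95 and -0.25). Ccl3, Ccl4, Ccl6 and Ccl9 were higher by 6.92, 5.68, 5.42 and 3.33 on the log2 scale (edgeR adjusted p at most 0.00139). Ccl5 was lower, with 5 counts against 168. The depth-scaled ratio of stroma over neutrophils was 31.4 (exact 95% interval 13.2 to 97.8). It was 61.6 without neutrophil replicate 1 and 20.6 without stromal replicate 3 or 4. The edgeR call of Ccl5 (adjusted p = 0.0402) was lost without neutrophil replicate 2, 3 or 4 or stromal replicate 3 or 4 (0.0707 to 0.0987). Without tumor neutrophil replicate 1 or 4, Ccl2 was called higher in neutrophils (3.34 and 3.35, adjusted p = 0.0240 and 0.0420). Tumor monocytes were higher than stroma in 5 of 9 (20.3% of all genes, medians 2.60 and -0.14). Ccl9 differed most, by 6.06 (SE 0.51). The other 4 were Ccl2, Ccl3, Ccl4 and Ccl6, by 2.60 to 3.17. With the animal named in the title as a block, 0 of the 5 neutrophil calls and 1 of the 5 monocyte calls were left. By title, stroma shared 1 animal with neutrophils and 1 with monocytes. The share of all genes called under the block is not given here, so these counts do not set the members apart.

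Of the 5 calls of monocytes against stroma, those of Ccl4 and Ccl9 held with any 1 library left out. Ccl2 was lost without any one of the 8 (edgeR adjusted p = 0.0517 to 0.119), Ccl3 without monocyte replicate 3 or stromal replicate 1, 2 or 3 (0.0534 to 0.0959), and Ccl6 without stromal replicate 1 (0.0575). With stromal replicates 1 and 2 both left out, 1 of the 5 calls was left, and the share of all genes called in that smaller fit is not given here.

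Between tumor epithelium and tumor stroma 3 of 9 members were called, all lower in epithelium, against 4.09% of all genes (medians -3.34 and 0.01). Ccl3 was lower by 3.99 and Ccl6 by 3.34 on the log2 scale (edgeR adjusted p = 0.0407 and 0.0473), and Ccl4 had 1 count against 154 (stroma over epithelium 227, exact 95% interval 40.2 to 9027, and at least 54.3-fold without epithelial replicate 3). The stromal libraries 3 and 4, which held leukocyte markers, were the highest in all 3. The Ccl3 call was lost without epithelial replicate 1, 3 or 4 or stromal replicate 3 or 4 (adjusted p = 0.104 to 0.127), and that of Ccl6 without any epithelial library or stromal replicate 3 or 4 (0.0722 to 0.160).

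**Figure D4:**
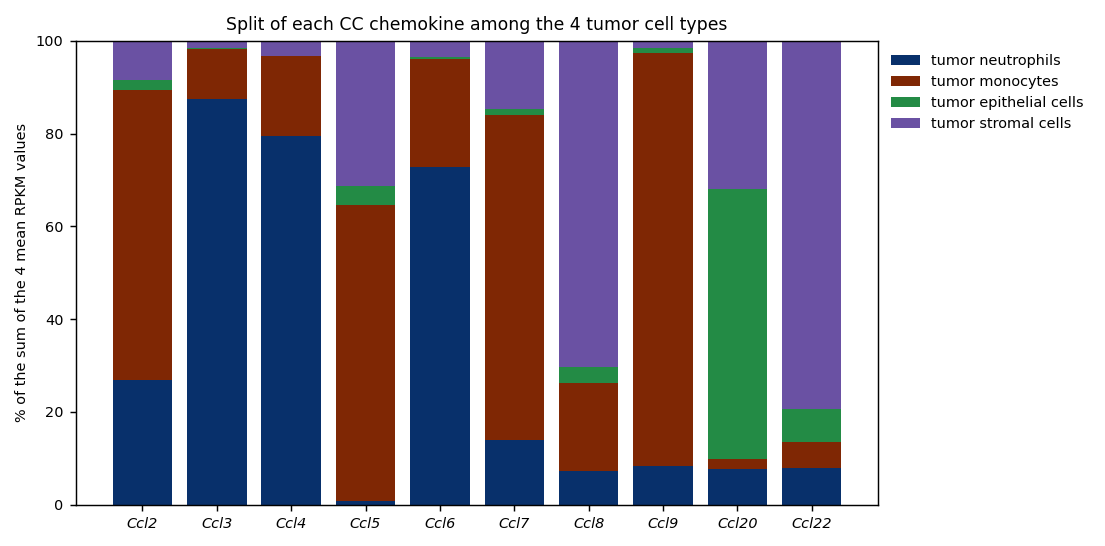
Share of each cell type in the sum of the 4 mean RPKM values of the tumor cell types, as stacked percent per member. Each bar adds to 100% and takes no account of how many cells of a type a tumor holds. Tumor neutrophil replicate 2 was far above its group for Ccl2, Ccl3 and Ccl7. For Ccl8, Ccl20 and Ccl22 every tumor group mean was below 1 RPKM. Neutrophils take 87.4% of Ccl3, 79.4% of Ccl4 and 72.8% of Ccl6, monocytes 89.1% of Ccl9, 70.01% of Ccl7 and 62.6% of Ccl2, stroma 79.3% of Ccl22 and 70.4% of Ccl8, and epithelium 58.1% of Ccl20.

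Per cell type, the sum of the 4 tumor means was split unevenly. Tumor neutrophils held 87.4% of it for Ccl3, 79.4% for Ccl4 and 72.8% for Ccl6. Tumor monocytes held 89.1% for Ccl9, 70.01% for Ccl7, 63.8% for Ccl5 and 62.6% for Ccl2. The neutrophil means include replicate 2, with 1501 RPKM of Ccl3 (others 253 to 299) and 47.5 RPKM of Ccl2 (others 1.01 to 1.92). Ccl5 had a second share of 31.3% in stroma, from replicates 3 and 4 (1.40 and 1.44 RPKM, against 0.154 and 0.0184), which also held T and NK cell markers (16.6 and 13.6 RPKM, against 0.562 and 0.626). These shares compare levels in RNA of equal amount and not the output of a tumor.

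In blood, neutrophils and monocytes were compared in each kind of mouse. In healthy mice 4 of 6 members were called, 1 higher in neutrophils and 3 lower, against 37.1% of all genes (medians -0.49 and -0.07). In tumor-bearing mice 3 of 5 were called, 1 higher and 2 lower, against 38.0% (medians -1.45 and -0.12). Ccl6 was higher in neutrophils by 1.82 (SE 0.31) and 2.02 (SE 0.22) on the log2 scale, and Ccl9 was lower by 3.41 (SE 0.36) and 3.13 (SE 0.20), with edgeR adjusted p at most 0.00102. Ccl9 was at 29.3 to 70.1 RPKM in blood monocytes and 1.47 to 3.98 RPKM in blood neutrophils. Ccl2 was lower in neutrophils by 2.44 and 2.59 (adjusted p = 0.00875 and 0.0117). In a fit of all 40 libraries Ccl2 missed the threshold in healthy and in tumor-bearing mice (adjusted p = 0.0872 and 0.0608), and Ccl6 in healthy mice (0.0628).

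Ccl5, an attractant of T cells, was lower in neutrophils of healthy mice by 2.83 (SE 0.80, edgeR adjusted p = 0.0143). It was at 6.56, 2.91, 5.09 and 0.799 RPKM in healthy blood monocytes and 1.02, 0.136, 5.83 and 0.105 RPKM in those of tumor-bearing mice. T and NK cells express much Ccl5, and their markers summed to 15.5, 37.3, 15.5 and 1.39 RPKM in the former libraries and 1.04, 0.871, 26.8 and 0.667 RPKM in the latter. The library lowest in the markers was the lowest in Ccl5 in both groups, and in tumor-bearing mice the highest was also shared. Tumor monocyte replicate 1 had 4.07 RPKM of Ccl5 with marker sums of 0.435 RPKM, and Gzma was listed at 0 in all 4 tumor monocyte libraries. The part of T and NK cells was not tested.

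The ratio of Ccl6 to Ccl9, 2 neighbouring genes for the same receptor, separated neutrophils from monocytes in all of their libraries. It was 31.4 to 35.5 in healthy blood neutrophils, 27.2 to 32.9 in blood neutrophils of tumor-bearing mice and 10.1 to 18.9 in tumor neutrophils. In monocytes it was 0.617 to 1.23, 0.676 to 0.976 and 0.212 to 0.684 in the same order. Neutrophil and monocyte libraries did not overlap, and tumor neutrophils lay below both groups of blood neutrophils. The ratio did not set stroma apart, since healthy stroma ran from 0.245 to 16.1, into both ranges. The ratio of Ccl3 to Ccl4 did not separate groups in this way (13.2 to 31.4 in tumor neutrophils, 5.08 to 22.8 in blood neutrophils of tumor-bearing mice, 8.43 to 48.8 in tumor monocytes).

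**Figure D5:**
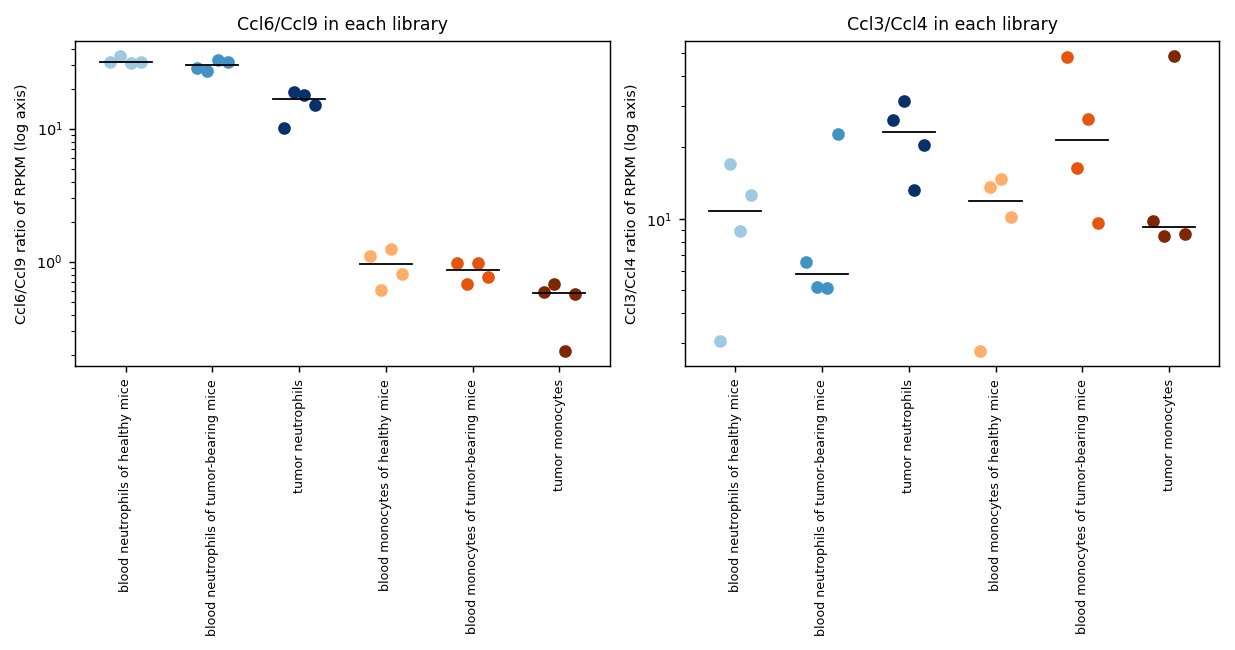
Ratio of RPKM of Ccl6 to Ccl9 and of Ccl3 to Ccl4 in each library of the 6 neutrophil and monocyte groups, on a log axis, with a line at the median of each group. The Ccl6 to Ccl9 ratio is above 10 in all 12 neutrophil libraries and at most 1.23 in all 12 monocyte libraries, while the Ccl3 to Ccl4 ranges overlap.

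A further test was run on single RPKM values. Over 140 comparisons (10 members, 14 pairs of groups) the 2-sided exact permutation test of the difference of means had a smallest p of 0.0286, which is the smallest that 4 against 4 libraries allow, and no adjusted p was under 0.0952. With that floor, an adjusted p under 0.05 would need most of the 140 comparisons to lie at the floor. The test therefore could not decide on single differences.

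The receptors of the members were measured in the same libraries. Of 13 receptors and scavengers, 6 were tested in tumor against blood neutrophils with 1 called higher (Ccrl2, 6.29 on the log2 scale) and 1 lower (Ackr4), and 7 in monocytes with 4 called, all higher (Ccr1, Ccr3, Ccr7 and Ccrl2), where 16.3% and 11.7% of all genes were called. Ccr1, the receptor of Ccl3, Ccl5, Ccl6 and Ccl9, was at 16.6 to 54.2 RPKM in tumor neutrophils and 28.7 to 40.2 RPKM in blood neutrophils (0.36, SE 0.44, edgeR adjusted p = 0.620). In monocytes it rose from 2.41 to 5.38 RPKM in blood to 16.2 to 24.6 RPKM in the tumor (2.66, SE 0.29, adjusted p = 0.000184). The difference between the cell types was itself called (-2.41, SE 0.55, adjusted p = 0.0205), the only one of 7 receptors tested for it, against 3.95% of all genes. Ccr2, the receptor of Ccl2 and Ccl7, was at 23.9 to 49.5 RPKM in tumor monocytes and 89.0 to 108 RPKM in blood monocytes, lower with an adjusted p of 0.00667 but a log2 fold change of -1.21, under the size asked for a call. All 3 neutrophil groups had Ccr2 at 0.491 RPKM or less. Ccr4 and Ccr6, the receptors of Ccl22 and Ccl20, were at most 0.519 and 2.15 RPKM in any library, both maxima in stroma.

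In tumor against healthy stroma Ccr1 was called higher (4.38, edgeR adjusted p = 0.0303) and Ackr4 lower, of 10 tested and against 8.40% of all genes. Ccr1 was at 4.18 and 4.46 RPKM in the replicates with leukocyte markers against 0.540 and 0.197 RPKM in the other 2. No receptor was called in epithelium (of 3) or between blood cells of tumor-bearing and healthy mice (of 6 in each cell type), and at an unadjusted p under 0.05 there were 0 in epithelium, 2 in neutrophils and 2 in monocytes. The shares called of all genes were 15.4%, 4.01% and 0.209% in the same order. Within the tumor, 1 of 9 receptors was lower in neutrophils than in monocytes, Ccr2 (-7.29, edgeR adjusted p = 0.000158), against 13.8% of all genes. Against epithelium 3 of 9 were higher in neutrophils, and 6 were higher and 1 lower in monocytes, against 21.6% and 29.0%. Against stroma 3 were higher and 1 lower in neutrophils, 3 higher and 2 lower in monocytes, and 3 lower in epithelium, against 16.1%, 20.3% and 4.09%. Between blood neutrophils and monocytes, 2 of 7 were higher and 1 lower in healthy mice and 3 of 6 higher and 1 lower in tumor-bearing mice, against 37.1% and 38.0%.

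Of the other 11 CC chemokines, Ccl11, Ccl12, Ccl21a, Ccl24 and Ccl28 reached a group mean of 1 RPKM. In stroma 2 of 6 tested were called, both lower in the tumor, against 8.40% of all genes. Ccl11 (eotaxin, which attracts eosinophils) was at 46.3, 42.9, 37.7 and 125 RPKM in healthy and 0.120, 0.978, 1.54 and 1.22 RPKM in tumor stroma, and fell by 5.69 on the log2 scale (SE 0.82, edgeR adjusted p = 0.00664). Ccl21a, a lymphoid homing signal of lymphatic vessels, was at 25.9, 5.92, 1.73 and 0.869 RPKM in healthy stroma and at most 0.602 RPKM in tumor stroma (-4.96, adjusted p = 0.0451). The fibroblast sums differed in the same direction (355 to 2010 against 5.97 to 24.0 RPKM), and their part was not tested. In epithelium 1 of 3 was called against 15.4% of all genes. It was Ccl28, a mucosal epithelial chemokine, at 5.25, 6.62, 6.55 and 0.889 RPKM in healthy and at most 0.529 RPKM in tumor epithelium (-4.96, SE 0.44, adjusted p = 5.1e-05). In monocytes 1 of 2 was called against 11.7%. It was Ccl24, which also draws eosinophils, with 0.308, 2.17, 1.61 and 10.999 RPKM in the tumor and at most 0.446 RPKM in blood (4.34, SE 1.12, adjusted p = 0.0239). Ccl12, a mouse ligand of Ccr2, was at 0.0700 to 2.28 RPKM in tumor monocytes and 0.646 to 2.10 RPKM in healthy stroma. Within the tumor, neutrophils were higher than epithelium in 2 of 7 (21.6% of all genes), monocytes were higher than epithelium in 3 (29.0%) and than stroma in 1 (20.3%), and neutrophils were lower than monocytes in 1 (Ccl24, 13.8%).

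Genes with the most similar pattern were found by Pearson correlation of log2(RPKM + 0.1) over the 40 libraries among 13900 genes, as a description, since the points share groups. Ccl3 was closest to Bcl2a1c, Bcl2a1a and Bcl2a1d (r = 0.878, 0.875 and 0.875), survival genes of a family of near-identical copies among which reads may be split. Ccl4 was closest to the inflammasome gene Nlrp3 (0.883) and to Bcl2a1c and Bcl2a1a. Ccl6 had the closest likeness of all, to Tlr6 (0.959), Gmfg-ps and Msrb1. Ccl9 was closest to the lysosomal protease gene Ctss (0.905), Gpr35 and Naip2. Ccl2 was closest to Pofut2 (0.842), the adhesion gene Icam1 (0.837) and Gpnmb, Ccl7 to Ptges (0.833), Gm3810 and Il6 (0.831), Ccl8 to Sfrp4 (0.909), Lgi2 and Ptx3, and Ccl5 to Il12rb2 (0.849), Klrk1 (0.817) and Ms4a4b. Among the members themselves Ccl3 and Ccl4 were the closest (0.952), followed by Ccl2 and Ccl7 (0.874), Ccl7 and Ccl8 (0.782), and Ccl6 and Ccl9 (0.683).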

How the data were processed

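RNA of sorted cells was sequenced in 40 libraries of 10 groups, 4 each, grouped by the labels. The labels call the molecule polyA RNA, while the study's methods describe cDNA made from total RNA with the NuGEN Ovation system and name no poly(A) selection. The authors mapped reads to mm10 with HTSstation, for which the study cites Bowtie 2, and the submitters' processing notes list bcl2fastq, Bowtie2 and limma. The annotation release and the treatment of strand and of reads with several matches are not given in the sources used here. The deposited values are estimated counts per gene (expected counts, of which 99.6% of those above 0 are not whole numbers) and RPKM made by the authors. RPKM follow the authors' own library scaling. Every column was mapped to a sample.

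Expected counts were rounded, filtered with filterByExpr, scaled by TMM and tested with edgeR 4.0.16 (robust quasi-likelihood, R 4.3.3). The p-values were adjusted over all genes tested by Benjamini-Hochberg, and genes were called at an adjusted p under 0.05 and a log2 fold change above 1.5 in size, the thresholds the study states. The 2 groups compared entered each fit. The 16 tumor libraries shared 1 fit for comparisons of tumor cell types, and 16 neutrophil and monocyte libraries the test of the difference between them. As alternatives served DESeq2 1.42.0, voom weights in limma 3.58.1, RLE factors, other filters, limma on log2(RPKM + 1) and log2(RPKM + 0.1), 1 fit of all 40 libraries, no fold threshold, blocks, and each library left out. After the data were seen, mitochondrial genes were left out, tumor stromal replicates 1 and 2 were left out, and the order of groups and the ratios of low counts were recomputed with each library left out. The scripts were tested on simulated data.

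Symbols came from GENCODE M21 (45143 of 45706 genes matched) and promoters from RefSeq. The members and the lists of receptors, other CC chemokines and markers were chosen with earlier results of these data known. All members were named. Receptors of the members, other CC chemokines with a group mean of at least 1 RPKM and the 3 genes most like each member of at least that level were given with values; 1 receptor is not reported here and was left out of the list. Ccrl2, Ackr4, Ccr3 and Ccr7 were named after their values were seen. Where a group had at most 3 counts in every library, ratios of pooled depth-scaled counts with exact intervals, or bounds from a floor of 3 counts, replaced fitted fold changes. Intervals and floors cover counting error only. The ratios and bounds use total counts without TMM, so they are on another scale than the edgeR fold changes.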

Additional observations from a re-analysis of the deposited data

Results flagged for a closer look

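In 15 of the 74 groups of 4 libraries looked at, the highest library stood far from the other 3, by Dixon's criterion for 4 samples. For independent, normally distributed values chance flags about 1 in 20 such groups. RPKM values are skewed and the same libraries recur over genes here, so that rate was not tested for these groups.

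Tumor neutrophil replicate 2 stood far above its group for 3 members, with 47.5 RPKM of Ccl2 (others 1.01 to 1.92), 1501 RPKM of Ccl3 (others 253 to 299) and 2.01 RPKM of Ccl7 (others 0.0364 to 0.290). Its dissociation-response sum was also the highest of the group (1224 RPKM). It held counts on 17199 genes, the fewest of the group, against 24046 to 26255 in the other libraries. The part of either in these values was not tested.

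Healthy stromal replicate 4 stood far above its group for 4 members and 2 further CC chemokines. It held 197 RPKM of Ccl2, 89.8 of Ccl7, 4.96 of Ccl8 and 1.88 of Ccl9, and 125 RPKM of Ccl11 and 2.10 of Ccl12. The other 3 libraries reached 12.9, 5.66, 0.624, 0.127, 46.3 and 0.742 RPKM. Its fibroblast sum was 2010 RPKM against 355 to 648 RPKM, and the part of cell makeup was not tested.

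Of the blood libraries, healthy neutrophil replicate 4 had 36.0 RPKM of Ccl3 (others 2.98 to 7.29), and neutrophil replicate 3 of tumor-bearing mice had 3.87 RPKM of Ccl4 (others 0.0860 to 0.464). Blood monocyte replicate 3 of tumor-bearing mice had 5.83 RPKM of Ccl5 (others 0.105 to 1.02) with the most T and NK cell marker RNA of its group (26.8 RPKM), and replicate 2 had 1.17 RPKM of Ccl7 (others 0.00607 to 0.0908). Tumor monocyte replicate 1 had 4.07 RPKM of Ccl5 (others 0.521 to 0.774). Tumor stromal replicate 1 had 1.15 RPKM of Ccl20 (others 0 to 0.127).

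The tumor-minus-blood change of Ccr1 was lower in neutrophils than in monocytes, with a difference of -2.41 on the log2 scale in edgeR's test of the difference (SE 0.55, adjusted p = 0.0205).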

How the results depend on the processing

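Of 2047 values of single members under an alternative, 1873 kept their direction and their side of the adjusted p threshold, 106 lost and 68 gained it, and 0 turned their direction past it. DESeq2 gave an adjusted p of NA for 7 more, which are not counted. The numbers of members called moved as follows, and the share of all genes called under each setting is not given beside them. For tumor against blood neutrophils (3) DESeq2 called 1, since Ccl2 and Ccl3 were NA, and the fit of all 40 libraries 5, with 1 to 3 when 1 library was left out. For monocytes (1) limma-voom and DESeq2 called 3 and both RPKM scales 2 (1 to 3). For blood neutrophils of tumor-bearing against healthy mice (0) the range was 0 to 1. For epithelium (2) a minimum of 10 counts in every library and log2(RPKM + 1) each gave 1. For stroma (1) limma-voom, log2(RPKM + 0.1) and the replicate block gave 2, DESeq2 3 and all 40 libraries 6 (0 to 2). For tumor neutrophils against monocytes (4) the minimum of 10 counts gave 1 and the animal in the title as a block 2 (2 to 5). For neutrophils against epithelium (6) the minimum gave 2, and against stroma (5) 1, with 0 under the animal block. For monocytes against epithelium (7) the minimum gave 2. For monocytes against stroma (5) RLE gave 3, and the minimum, the animal block and leaving out stromal replicates 1 and 2 gave 1 (2 to 4). For epithelium against stroma (3) limma-voom gave 1 and the minimum and log2(RPKM + 1) 0 (1 to 3). For healthy blood neutrophils against monocytes (4) the minimum, log2(RPKM + 1) and all 40 libraries gave 2. For the difference between cell types (0) the minimum, both RPKM scales and all 40 libraries gave 1 (0 to 2). The minimum of 10 counts removes members that are low in 1 group before the test, so fewer are tested. Elsewhere the cause was not tested.

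Labels share replicate numbers across groups, but same-numbered libraries did not deviate together (r from -0.247 to 0.305, not all over 0.1 in any comparison). Equal numbers can still mean the same animal by title, as in 3 pairs of tumor neutrophil and monocyte libraries (r from -0.0610 to 0.0333). A low correlation does not undo such pairing. The main fits left it out, and the animal entered only as a block in an alternative fit of the tumor cell types. The replicate block moved no other count of calls by over 1.5 times. The leading group of each gene was kept by 8 of 10 genes on the log2(RPKM + 0.1) scale and by 9 to 10 with a library left out. With 4 libraries a group and SDs often as large as the mean, differences in Ccl2, Ccl7, Ccl8, Ccl20 and Ccl22 were limited by the spread between libraries, and Ccl8, Ccl20 and Ccl22 by depth as well.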
